A study of Mus musculus with 12 samples.

Results

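The 10 genes described here, Mdm2, Ccng1, Zmat3, Phlda3, Sesn2, Trp53inp1, Bax, Bbc3, Eda2r and Plk2, are direct transcriptional targets of p53 in the DNA damage response. They were taken by name from 54839 features, with earlier results of these data known. All 10 were among the 17121 genes that passed the filter on low counts. The libraries are bulk RNA-seq of sorted hepatocytes from male p16-Tom mice. In these mice tamoxifen (80 mg per kg) switches on the fluorescent protein tdTomato in cells that express p16Ink4a. Repeated CCl4 (1 mL per kg every 3 days for 4 weeks), a hepatotoxin dissolved in corn oil, was compared with corn oil alone. The tdTomato-positive (Tom+) and tdTomato-negative (Tom-) hepatocytes of each treatment gave 4 groups of 3 libraries, and all groups carried the reporter and received tamoxifen. The labels do not say that the 3 libraries of a group came from separate mice, so p-values measure the spread between these libraries, which may be technical.

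p53 is held at a low level by ubiquitination and is stabilised when DNA is damaged or the cell is stressed. It then binds its response elements and induces genes of several kinds: inhibitors that feed back on p53 (Mdm2, Ccng1), genes that slow growth or the cell cycle (Zmat3, Phlda3, Sesn2, Plk2, Trp53inp1) and genes of cell death (Bax, Bbc3, Eda2r). In liver, CCl4 is activated to a radical by pericentral enzymes, and p53 is one of the pathways known to respond to such injury.

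The p53 response element is a pair of half-sites of 10 bases, which may be separated by a spacer. RefSeq start sites (GRCm38.p6) were at hand for 8 of the 10 genes, and the 300 bases around each start (250 before, 50 after) were searched for 2 half-sites with intact central 4 bases, a spacer of up to 13 bases and at most 3 mismatches among 20 bases. The half-site reads alike on both strands. Such a pair was found before the start of Bax, which has 1 window, and in 1 of the 3 windows of Bbc3, that is in 2 of the 10 windows of these genes. It was found in 6.72% of all 32851 windows, with limits of 0 to 4 mismatches having been looked at. The 250 bases before the start of both genes are shown because they hold these pairs, with the half-sites in capitals. The Bax stretch lies on the minus strand at chr7:45466899-45467148, and its pair (2 mismatches, spacer of 5 bases) begins 216 bases before the start. The Bbc3 stretch lies on the plus strand at chr7:16309333-16309582, and its pair (3 mismatches, no spacer) begins 97 bases before the start.
Bax: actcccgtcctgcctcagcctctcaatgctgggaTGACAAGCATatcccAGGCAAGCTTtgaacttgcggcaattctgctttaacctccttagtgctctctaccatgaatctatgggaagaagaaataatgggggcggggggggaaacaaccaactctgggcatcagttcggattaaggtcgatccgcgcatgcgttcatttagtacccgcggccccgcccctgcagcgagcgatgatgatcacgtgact
Bbc3: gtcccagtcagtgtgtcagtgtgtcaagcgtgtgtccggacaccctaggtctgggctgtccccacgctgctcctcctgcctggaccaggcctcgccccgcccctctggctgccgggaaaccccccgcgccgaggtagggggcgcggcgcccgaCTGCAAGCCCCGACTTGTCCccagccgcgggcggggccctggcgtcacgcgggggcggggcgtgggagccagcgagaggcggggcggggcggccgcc
A single half-site without mismatch stood in 3 of the 10 windows (Bax, Mdm2 and Ccng1), against 8.36% of all windows. Those of the feedback inhibitors are shown for comparison.
Mdm2: GAACTTGCCT
Ccng1: GGGCAAGCCT
A match of letters is not a binding site, and windows without one say nothing of p53 binding elsewhere in the gene.

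Total counts were 37568584 to 75331424 per library. Levels are given as CPM, counts scaled to the library size with TMM normalization, and errors are SD over 3 libraries. The reporter transcript went against the label in 2 oil libraries: it stood at 1793 CPM in Tom- oil library 1 and at 135 CPM in Tom+ oil library 2. The oil libraries that matched their labels were at 143 and 157 CPM in Tom- and at 1225 and 1546 CPM in Tom+, and the CCl4 libraries were at 120 to 263 CPM in Tom- and at 1316 to 1369 CPM in Tom+. The 6 hepatocyte markers summed to between 91600 and 137400 CPM. The third library of both CCl4 groups stood apart in the 6 proliferation genes, at 64.0 CPM in Tom- and 92.4 CPM in Tom+, where the other 4 CCl4 libraries were at 15.7 to 18.8 CPM.

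Per length, the members spanned a wide range of levels. Trp53inp1 was the highest with a mean of 50.05 TPM, a scale corrected for transcript length, over the 12 libraries, followed by Bax (24.7 TPM) and Ccng1 (23.0 TPM). Mdm2 was at 13.3 TPM, Bbc3 at 8.10 TPM, Plk2 at 7.40 TPM and Sesn2 at 6.78 TPM. Phlda3 (3.31 TPM), Zmat3 (2.54 TPM) and Eda2r (1.10 TPM) were the lowest, and Phlda3 had as few as 19 counts in 1 library. The ranges over the libraries overlapped between all neighbours in this order.

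**Figure D1:**
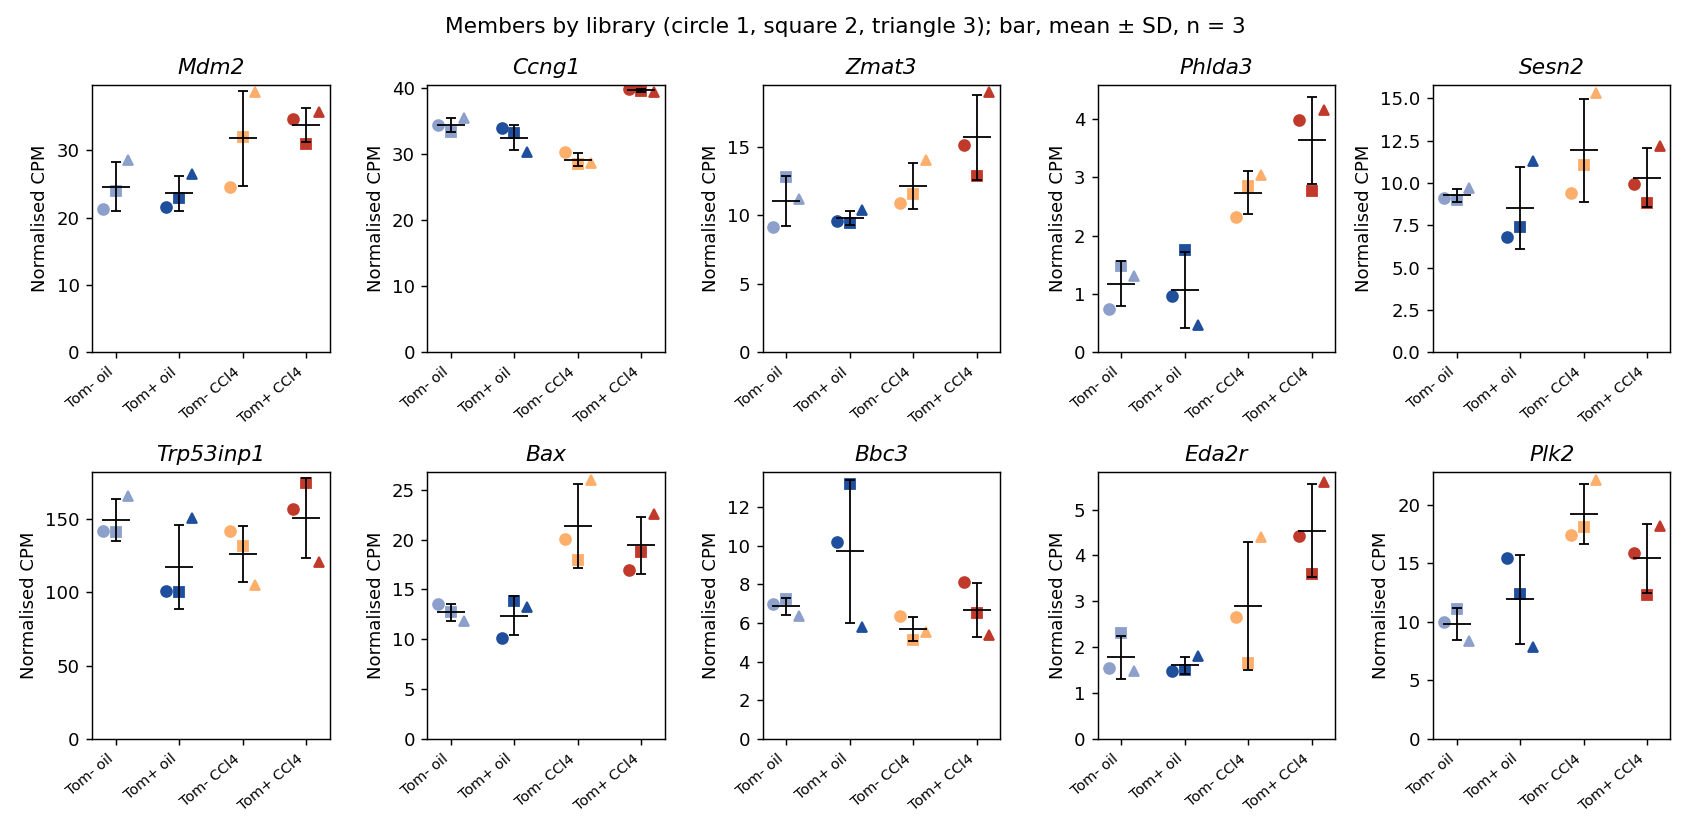
TMM-normalized CPM (linear axis from 0) of the 10 members in each of 12 libraries. Symbols give the library number within a group, and bars give the mean ± SD of 3 libraries. The Phlda3 and Bax levels of all 6 CCl4 libraries lie above those of all 6 oil libraries.

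The first comparison asks what CCl4 changed in each fraction. Averaged over both fractions, Phlda3, Eda2r, Bax, Plk2, Mdm2 and Zmat3 rose with CCl4, by 1.33-fold (Zmat3) to 2.80-fold (Phlda3), and no member fell. This is 6 of 10 members at an adjusted p under 0.05 by edgeR's quasi-likelihood test, where 11.9% of all genes tested were higher and 10.1% lower by this rule. With a log2 fold change above 0.75 in addition, 2 members (Phlda3, Eda2r) were higher, against 6.17% of all genes. The median log2 fold change of the 10 members was 0.42, against 0.00268 over all genes. With the counts of same-numbered Tom+ and Tom- libraries summed, so that 3 sums were compared with 3, 4 members passed (Phlda3, Bax, Eda2r, Mdm2), and the adjusted p was 0.0703 for Zmat3 and 0.0922 for Plk2. Likewise, 4 members passed without the 2 oil libraries whose reporter went against the label (Phlda3, Bax, Eda2r, Plk2), and the adjusted p was 0.0536 for Mdm2 and 0.084 for Zmat3. Bulk RNA cannot tell a change in the share of responding cells from a change in the RNA per cell.

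Within Tom- hepatocytes, 3 members (Phlda3, Plk2, Bax) were higher and 1 (Ccng1) lower at an adjusted p under 0.05, where 9.37% of all genes were higher and 6.75% lower. With the fold threshold 2 members (Phlda3, Plk2) were higher, against 6.33% of all genes. Within Tom+ hepatocytes, 6 members (Phlda3, Eda2r, Zmat3, Bax, Mdm2, Ccng1) were higher and none lower, where 4.91% of all genes were higher and 4.56% lower. With the fold threshold 2 members (Phlda3, Eda2r) were higher, against 2.9% of all genes. The members' median log2 fold change was 0.37 in Tom- and 0.44 in Tom+. Zone markers moved with CCl4 in Tom+ as well: all 8 zone 1 markers fell (median -1.14) and 4 of 8 zone 3 markers rose (median 1.83). In Tom-, 2 of 8 zone 1 markers rose and 1 of 8 zone 3 markers fell. The part of zonation in the members' changes was not tested. These counts do not show that the fractions differ, which is tested below. Several calls rested on single libraries. Without Tom+ oil library 1, 1 member (Eda2r) passed in Tom+ in place of 6, and without Tom+ CCl4 library 3 it was 2 (Eda2r, Phlda3). Without Tom+ oil library 2 it was 3 (Eda2r, Phlda3, Bax), and without Tom+ CCl4 library 1 or 2 it was 4 (these 3 and Zmat3). In Tom-, Bax and Plk2 passed in 12 of 12 such fits and Ccng1 in 2, those without Tom+ oil library 2 or 3.

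**Figure D2:**
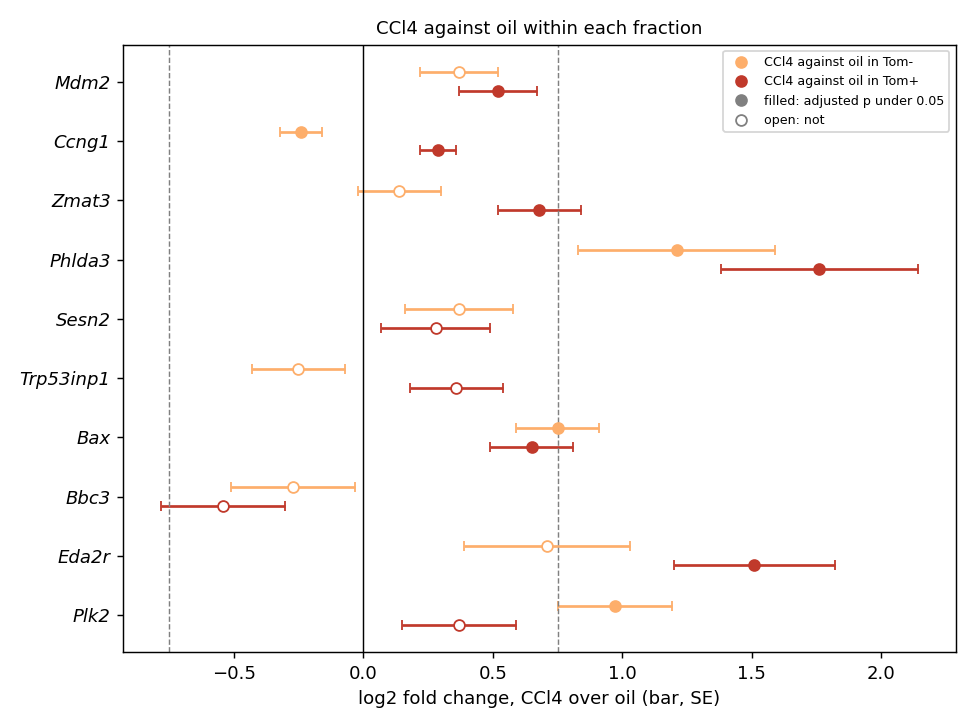
Log2 fold change (CCl4 over oil) of each member with its SE, in Tom- (light) and Tom+ (dark) hepatocytes, from the fit of 12 libraries. Filled points have an adjusted p under 0.05, dashed lines mark 0.75 on either side of 0, and Phlda3 is above 0.75 in both fractions.

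Phlda3, whose product competes with AKT for membrane lipids and so restrains AKT signalling, changed the most. It was at 0.738, 1.47 and 1.31 CPM in the Tom- oil libraries and at 2.33, 2.85 and 3.04 CPM after CCl4. In Tom+ it was at 0.968, 1.76 and 0.465 CPM in oil and at 3.98, 2.77 and 4.15 CPM after CCl4. The CCl4 and oil libraries did not overlap in either fraction. The log2 fold change was 1.21 ± 0.38 (SE, adjusted p = 0.0453) in Tom- and 1.76 ± 0.38 (adjusted p = 0.0114) in Tom+ by edgeR. The Tom- call was near the threshold and passed in 2 of 12 fits that left out 1 library, namely those without Tom+ oil library 2 or 3. Without the 2 oil libraries of contrary reporter it was 0.98 (adjusted p = 0.0782).

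Eda2r, a receptor of the tumour necrosis factor family that can signal cell death, was at 1.56, 2.31 and 1.47 CPM in Tom- oil and at 1.49, 1.51 and 1.81 CPM in Tom+ oil. After CCl4 it was at 4.42, 3.60 and 5.61 CPM in Tom+, clear of all 6 oil libraries. In Tom- it was at 2.65, 1.66 and 4.41 CPM after CCl4, which overlapped with oil. The change was 1.51 ± 0.31 (adjusted p = 0.00945, edgeR) in Tom+ and 0.71 ± 0.32 (adjusted p = 0.139) in Tom-. Without the 2 oil libraries of contrary reporter the Tom+ change was 1.47 and its adjusted p 0.0524.

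Bax, the effector that permeabilises the mitochondrial outer membrane, rose in both fractions. It was at 13.6, 12.7 and 11.9 CPM in Tom- oil and at 20.04, 17.9 and 26.0 CPM in Tom- CCl4. In Tom+ it was at 10.1, 13.8 and 13.2 CPM in oil and at 17.0, 18.7 and 22.6 CPM after CCl4. No CCl4 library overlapped with an oil library. The change was 0.75 ± 0.16 (adjusted p = 0.00722, edgeR) in Tom- and 0.65 ± 0.16 (adjusted p = 0.0197) in Tom+. In Tom- the value lay just under the fold threshold of 0.75 before rounding, so that Bax was not counted there. It crossed the threshold when deposited values ending in 0.5 were rounded up (0.7506). Fractional counts stood in all 12 libraries for this gene, so reads shared with another feature may bear on its level.

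Bbc3 (PUMA), which frees BAX from its inhibitors, did not pass in any comparison. It was at 6.99, 7.23 and 6.35 CPM in Tom- oil and at 6.34, 5.14 and 5.53 CPM in Tom- CCl4. In Tom+ oil it was widely spread, at 10.2, 13.2 and 5.80 CPM, and after CCl4 it was at 8.15, 6.53 and 5.36 CPM. The log2 fold change was -0.27 ± 0.24 (adjusted p = 0.472, edgeR) in Tom- and -0.54 ± 0.24 (adjusted p = 0.182) in Tom+. It was the one member whose value lay below 0 over both fractions (-0.41, adjusted p = 0.105), and without Tom+ oil library 3 its Tom+ change passed (adjusted p = 0.0169).

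Plk2, a polo-like kinase of the centriole cycle, was at 9.94, 11.1 and 8.36 CPM in Tom- oil and at 17.4, 18.1 and 22.1 CPM in Tom- CCl4, without overlap. It rose by 0.97 ± 0.22 (adjusted p = 0.0111, edgeR). In Tom+ the oil libraries alone spanned 7.86 to 15.4 CPM and the CCl4 libraries 12.2 to 18.1 CPM. The change there was 0.37 ± 0.22 (adjusted p = 0.326), and the difference between the fractions did not pass (-0.60 ± 0.31, adjusted p = 0.32). Without the 2 oil libraries of contrary reporter the Tom- change was 0.98 with an adjusted p of 0.0572.

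Mdm2, the ubiquitin ligase that degrades p53, was at 21.3, 24.0 and 28.5 CPM in Tom- oil and at 24.6, 32.0 and 38.7 CPM in Tom- CCl4. In Tom+ it was at 21.5, 22.8 and 26.5 CPM in oil and at 34.7, 30.9 and 35.6 CPM after CCl4. The groups overlapped in Tom- and not in Tom+. The change was 0.37 ± 0.15 (adjusted p = 0.115, edgeR) in Tom- and 0.52 ± 0.15 (adjusted p = 0.0488) in Tom+. With the replicate number as a term common to oil and CCl4, which share only that number, the Tom- change passed as well (adjusted p = 0.0284, edgeR). Without the 2 oil libraries of contrary reporter the adjusted p was 0.127 in Tom+.

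Zmat3, a p53-induced RNA-binding protein that acts on splicing, was at 9.18, 12.8 and 11.2 CPM in Tom- oil and at 10.9, 11.5 and 14.1 CPM in Tom- CCl4, with overlap. In Tom+ it was at 9.59, 9.46 and 10.4 CPM in oil and at 15.2, 12.9 and 19.0 CPM after CCl4, without overlap. The change was 0.14 ± 0.16 (adjusted p = 0.596, edgeR) in Tom- and 0.68 ± 0.16 (adjusted p = 0.0171) in Tom+. Without the 2 oil libraries of contrary reporter the Tom+ adjusted p was 0.0526.

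Sesn2, a sestrin that restrains mTORC1, spanned 6.83 to 11.3 CPM in the 6 oil libraries and 8.80 to 15.3 CPM in the 6 CCl4 libraries. Its change over both fractions was 0.32 ± 0.15 (adjusted p = 0.135, edgeR). It was 0.32 with an adjusted p of 0.0264 when the replicate number was a block common to oil and CCl4, which share only that number. With same-numbered libraries summed it did not pass (adjusted p = 0.251). Trp53inp1, a stress protein with roles in autophagy and cell death, had no common change (0.06 ± 0.12, adjusted p = 0.782).

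Markers of other cells moved with CCl4 too. Of 6 endothelial markers, 6 rose in Tom- and none passed in Tom+, their sum being 82.2 to 126 CPM in Tom- oil and 210 to 230 CPM in Tom- CCl4. Of 7 stellate cell markers, 5 rose in Tom- and 4 in Tom+, with sums of 6.41 to 19.7 CPM in oil and 39.5 to 84.6 CPM after CCl4. The 7 Kupffer cell markers summed to 11.2 to 77.0 CPM in oil and 33.1 to 82.2 CPM after CCl4, and none passed. In oil, only the third libraries reached the CCl4 range, at 54.42 CPM in Tom- and 77.0 CPM in Tom+. The other oil libraries were at 11.23 to 19.96 CPM. The median log2 fold change of these markers was 1.41 in Tom- and 0.49 in Tom+. The 5 cholangiocyte markers summed to 5.25 to 7.38 CPM in oil and 8.47 to 17.95 CPM after CCl4, without overlap, and 2 of them passed the filter. Spp1 rose over both fractions (1.05, adjusted p = 0.00719, edgeR) and Sox9 did not pass (0.32, adjusted p = 0.317). The duct keratin Krt19 was at 0 counts in all 6 oil libraries and in 2 of 6 CCl4 libraries. The part of these cells in the members' changes was not tested.

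The CCl4 libraries that stood apart in proliferation genes also held the highest levels of most members. In the third library of both CCl4 groups, the same 7 of 10 members (Mdm2, Zmat3, Phlda3, Sesn2, Bax, Eda2r, Plk2) had the highest level of their group, and Trp53inp1 had the lowest. The share of all genes that were highest in these libraries was not counted. Over all genes tested, the deviations of these libraries from their group means correlated at 0.401. With both of these libraries left out, 3 members (Phlda3, Eda2r, Bax) still rose over both fractions, by 1.39, 0.80 and 0.56 on the log2 scale. Their adjusted p was 0.0122, 0.0179 and 0.00333 in that edgeR fit. The adjusted p of Mdm2 was 0.0513, of Plk2 0.0521 and of Zmat3 0.113. The part of proliferating cells in these levels was not tested.

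The second comparison asks whether Tom+ and Tom- hepatocytes of one treatment differ. In CCl4, Ccng1 was higher in Tom+ and was the one member that passed, where 1.96% of all genes were higher at an adjusted p under 0.05. No member passed with the fold threshold, against 1.96% of all genes in either direction. Ccng1 encodes cyclin G1, which recruits a phosphatase to MDM2. It was at 39.8, 39.6 and 39.4 CPM in Tom+ CCl4 and at 30.2, 28.5 and 28.6 CPM in Tom- CCl4. In oil it was at 34.4, 33.4 and 35.5 CPM in Tom- and at 33.9, 33.1 and 30.3 CPM in Tom+. The 3 Tom+ CCl4 libraries were thus above, and the 3 Tom- CCl4 libraries below, all 6 oil libraries.

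For Ccng1 the difference between Tom+ and Tom- in CCl4 was 0.45 ± 0.08 (1.36-fold, adjusted p = 0.00694, edgeR) and was positive in all 3 pairs. It passed in all 22 alternative fits, with an adjusted p of at most 0.0466. In oil the difference was -0.08 ± 0.07 (adjusted p = 0.861). Against oil, Ccng1 was lower after CCl4 in Tom- (-0.24 ± 0.08, adjusted p = 0.0427) and higher in Tom+ (0.29 ± 0.07, adjusted p = 0.0285). Neither passed without the 2 oil libraries of contrary reporter (adjusted p = 0.113 in Tom- and 0.072 in Tom+, edgeR). They passed in 6 of 22 and 12 of 22 alternative fits, respectively. These 2 contrasts share their libraries with the one between fractions.

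The interaction, which is the difference between the CCl4 effects in Tom+ and Tom-, was 0.53 ± 0.11 for Ccng1 (adjusted p = 0.0329, edgeR). Ccng1 was the 1 member that passed, where 0.473% of all genes had a positive interaction by this rule, and 0 members passed with the fold threshold, against 1.17% of all genes in either direction. Without the 2 oil libraries of contrary reporter the interaction was 0.55 and its adjusted p 0.075. It passed in 5 of 12 fits that left out 1 library, and not without Tom- oil 1 or 2, Tom+ oil 1, Tom- CCl4 2 or any of the 3 Tom+ CCl4 libraries. Zone markers moved with the fractions: the 8 zone 3 markers summed to 4431 to 5711 CPM in Tom+ CCl4 and 2147 to 3212 CPM in Tom- CCl4. The 8 zone 1 markers summed to 4473 to 5699 CPM and 7309 to 9066 CPM, respectively. Of 6 endothelial markers, 5 were also lower in Tom+ than in Tom- in CCl4 (median -0.84). Their sums were 110.5 to 149 CPM in Tom+ CCl4 and 210 to 230 CPM in Tom- CCl4. Of the stellate and Kupffer cell markers, 0 passed there. The part of zonation or of other cells in the Ccng1 difference was not tested.

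**Figure D3:**
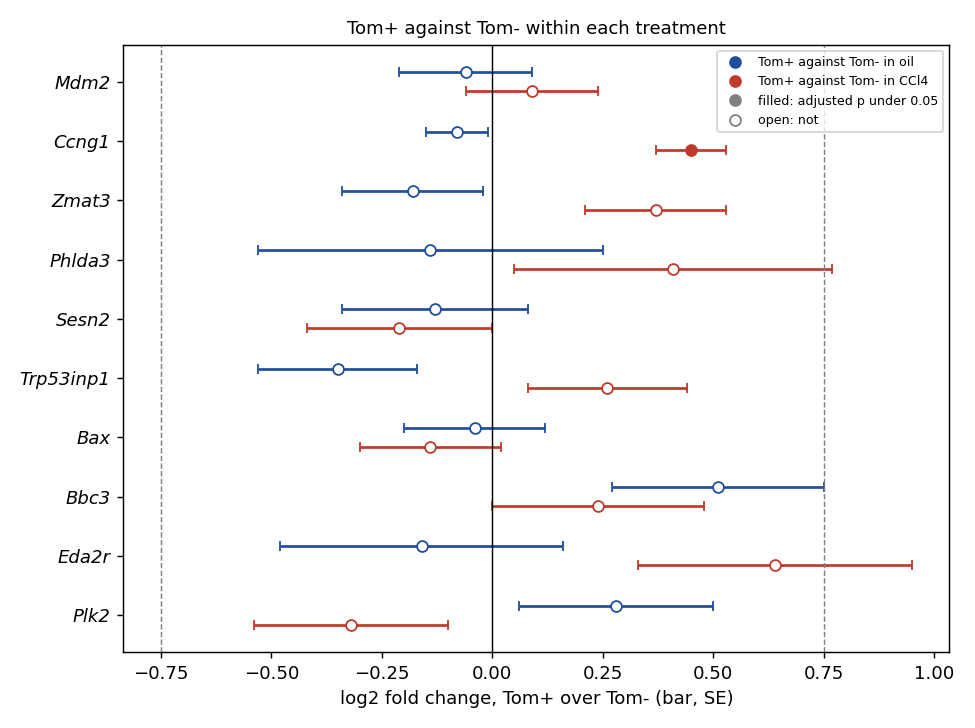
Log2 fold change (Tom+ over Tom-) of each member with its SE, in oil (blue) and in CCl4 (red), from the fit of 12 libraries. Filled points have an adjusted p under 0.05, and Ccng1 in CCl4 (0.45) is the one filled point.

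Tom+ and Tom- libraries that carry one replicate number shared deviations from their groups. For comparisons of the fractions, the number within each treatment therefore also entered the fit as a block. With the block, 4 members (Ccng1, Eda2r, Zmat3, Trp53inp1) were higher in Tom+ than in Tom- in CCl4, where 7.94% of all genes were higher. Each was higher in 3 of 3 pairs, but the blocked fit compares these same pairs, so this is not further support. The share of all genes higher in 3 of 3 pairs was not counted. The blocked log2 difference was 0.45 for Ccng1 (adjusted p = 0.00152), 0.71 for Eda2r (adjusted p = 0.037), 0.36 for Zmat3 (adjusted p = 0.0488) and 0.25 for Trp53inp1 (adjusted p = 0.0489). Without the block, the adjusted p of the last 3 was 0.236, 0.185 and 0.427.

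Trp53inp1 showed opposite directions in the treatments. In oil it was at 142, 141 and 166 CPM in Tom- and at 101, 100.4 and 151 CPM in the same-numbered Tom+ libraries, lower in 3 of 3 pairs. The reporter transcript was high in both libraries of oil pair 1 (1793 CPM in Tom-, 1546 CPM in Tom+). In oil pair 2 it was low in both (157 and 135 CPM). Only oil pair 3 (143 and 1225 CPM) thus set low against high reporter. In CCl4, Trp53inp1 was at 142, 132 and 105 CPM in Tom- and at 157, 174 and 121 CPM in Tom+, higher in 3 of 3 pairs. The interaction was 0.61 ± 0.25 (adjusted p = 0.22, edgeR) without the block and 0.62 ± 0.11 (adjusted p = 0.00424) with it. With the block, 2 members (Ccng1, Trp53inp1) had a positive interaction, where 5.3% of all genes did. The adjusted p of Ccng1 was then 0.00656.

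In oil, no member differed between Tom+ and Tom-, and none of the genes tested did (0.0% by edgeR, with 1198 genes at an unadjusted p under 0.05). By DESeq2, 23 genes were higher and 25 lower in Tom+ at an adjusted p under 0.05, and 0 members were among them. The paper, which used DESeq2, also reported genes that differed in oil. With the block 0 members passed, against 0.625% of all genes. The members' log2 differences in oil ranged from -0.35 (Trp53inp1) to 0.51 (Bbc3), with a median of -0.11. Since the reporter went against the label in 1 oil library of each fraction, this comparison was limited by the labels.

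**Figure D4:**
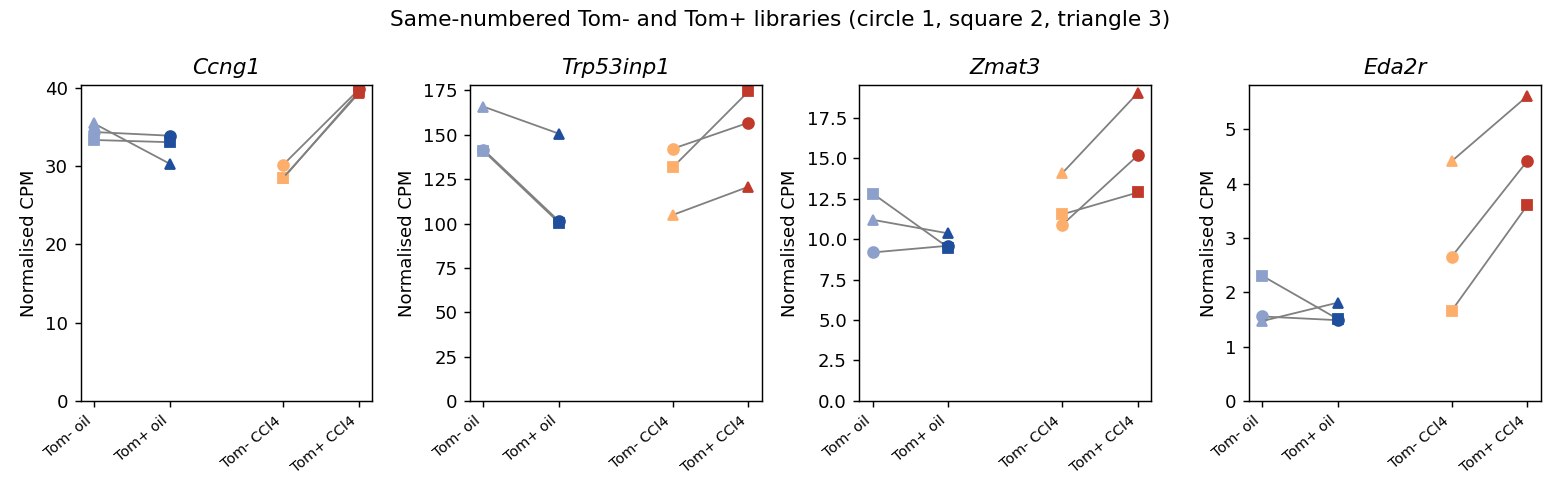
TMM-normalized CPM (linear axis from 0) of the 4 members that passed with the replicate block in CCl4, with lines joining same-numbered Tom- and Tom+ libraries. The CCl4 lines rise from Tom- to Tom+ in all 4 panels, and the oil lines fall in 3 of 3 pairs for Ccng1 and Trp53inp1. The reporter transcript was high in both libraries of oil pair 1 and low in both of oil pair 2.

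The members did not vary as one group. Over the 12 libraries, 31 of 45 pairs of members had a Pearson r of log2 CPM above 0, with a median of 0.34 and a range of -0.797 (Sesn2 and Bbc3) to 0.902 (Zmat3 and Eda2r). These libraries share the treatment, so r was also taken over deviations from the group means. There 23 of 45 pairs were above 0, with a median of 0.032. The lowest value was -0.917, between Trp53inp1 and Plk2, and the highest was 0.814, between Mdm2 and Sesn2. Among the genes most like the members' mean standardized log2 CPM over 12 libraries were Adgrv1 (r = 0.97), Anxa2 (0.967) and Tmem164 (0.962). By deviations from group means, Spag5 (0.967) and Tmem170 (0.932) were among them. These are descriptions over libraries that share treatment and depth.

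The wider pathway was read from 35 other p53 targets, of which 31 passed the filter. Over both fractions 4 rose (Apaf1, Pidd1, Aen, Plk3) and 2 fell (Gls2, Dcxr), or 12.9% and 6.45% of the 31, near the 11.9% and 10.1% of all genes. The list therefore did not stand out there, and its median log2 fold change was 0.15. Within Tom-, 4 of 31 (12.9%) rose and 1 (3.23%) fell, where 9.37% and 6.75% of all genes did. Within Tom+, 0 of 31 rose and 2 (Gls2 and Dcxr, 6.45%) fell, where 4.91% and 4.56% of all genes did. Apaf1, the scaffold of the apoptosome, rose in Tom- by 1.24 ± 0.21 (adjusted p = 0.00221, edgeR), and Pidd1, of the PIDDosome, by 1.12 ± 0.31 (adjusted p = 0.0286). Dcxr, a carbonyl reductase of sugar metabolism, was lower after CCl4 in Tom- (-0.76 ± 0.15, adjusted p = 0.00548).

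Cdkn1a, which encodes the cell cycle inhibitor p21 and is a canonical p53 target, did not pass in any comparison. It was at 55.3, 50.9 and 115 CPM in Tom- oil, at 49.97, 45.3 and 127 CPM in Tom+ oil, at 63.0, 60.2 and 47.3 CPM in Tom- CCl4 and at 61.5, 54.3 and 49.6 CPM in Tom+ CCl4. The third library of both oil groups was above all others. The change over both fractions was -0.40 ± 0.30 (adjusted p = 0.39, edgeR).

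Gls2, a mitochondrial glutaminase of periportal hepatocytes, was the one other target that differed between the fractions in CCl4 without the block (1 of 31 lower, where 3.83% of all genes were lower). With the block, 4 of 31 (Gls2, Ddit4, Gdf15, Plk3; 12.9%) were lower in Tom+, near the 9.72% of all genes. It was at 252, 214 and 170 CPM in Tom+ CCl4 and at 487, 491 and 340 CPM in Tom- CCl4, without overlap. In oil it was at 564, 413 and 376 CPM in Tom- and at 685, 556 and 467 CPM in Tom+. The difference in CCl4 was -1.05 ± 0.21 (adjusted p = 0.0148, edgeR), and the interaction was -1.39 ± 0.29 (adjusted p = 0.0407). Of the 8 zone 1 markers, 5 were lower in Tom+ than in Tom- in CCl4 as well, and their part was not tested.

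All 14 regulators of p53 and damage kinases passed the filter. Trp53 itself was at 12.3 to 18.7 CPM in the 12 libraries and did not pass in any comparison (over both fractions -0.02 ± 0.09, adjusted p = 0.895, edgeR). In CCl4, Hipk2, a kinase that phosphorylates p53, was higher in Tom+ by 0.86 ± 0.20 (adjusted p = 0.0322). The damage kinases Atm (0.66 ± 0.18, adjusted p = 0.0483) and Atr (0.43 ± 0.11, adjusted p = 0.0317) were also higher in Tom+. Hipk2, Atm and Atr were 3 of 14 regulators (21.4%), where 1.96% of all genes were higher. Mean Atm was 10.48 CPM in Tom- CCl4 and 16.63 CPM in Tom+ CCl4, against 15.39 CPM in Tom- oil and 14.42 CPM in Tom+ oil. In the same order, mean Atr was 10.71, 14.47, 13.03 and 13.78 CPM. Mean Hipk2 was 30.98, 56.37, 31.73 and 36.62 CPM. For CCl4 against oil, 0 of 14 regulators passed in Tom+ and 0 were lower in Tom-. Prkdc, the catalytic subunit of DNA-PK, fell over both fractions by 0.41 on the log2 scale (adjusted p = 0.0288, edgeR). It was 1 of 14 regulators (7.14%) lower there and 0 were higher, where 10.1% of all genes were lower and 11.9% higher.

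Cdkn2a, whose locus encodes p16Ink4a and p19Arf, had few counts. It had 3, 1 and 0 counts in Tom- oil, 8, 1 and 3 in Tom+ oil, 18, 8 and 21 in Tom- CCl4 and 6, 0 and 1 in Tom+ CCl4. It was higher after CCl4 in Tom- (adjusted p = 0.0342, edgeR). Between Tom+ and Tom- in CCl4 it was lower in Tom+ in 3 of 3 pairs, with an adjusted p of 0.0624 without the block and 0.0246 with it. The paper measured p16Ink4a itself by qPCR, on a separate CCl4 schedule, and found it higher in Tom+. The counts here are for the whole gene and do not separate p16Ink4a from p19Arf. No fold is given at these counts.

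**Figure D5:**
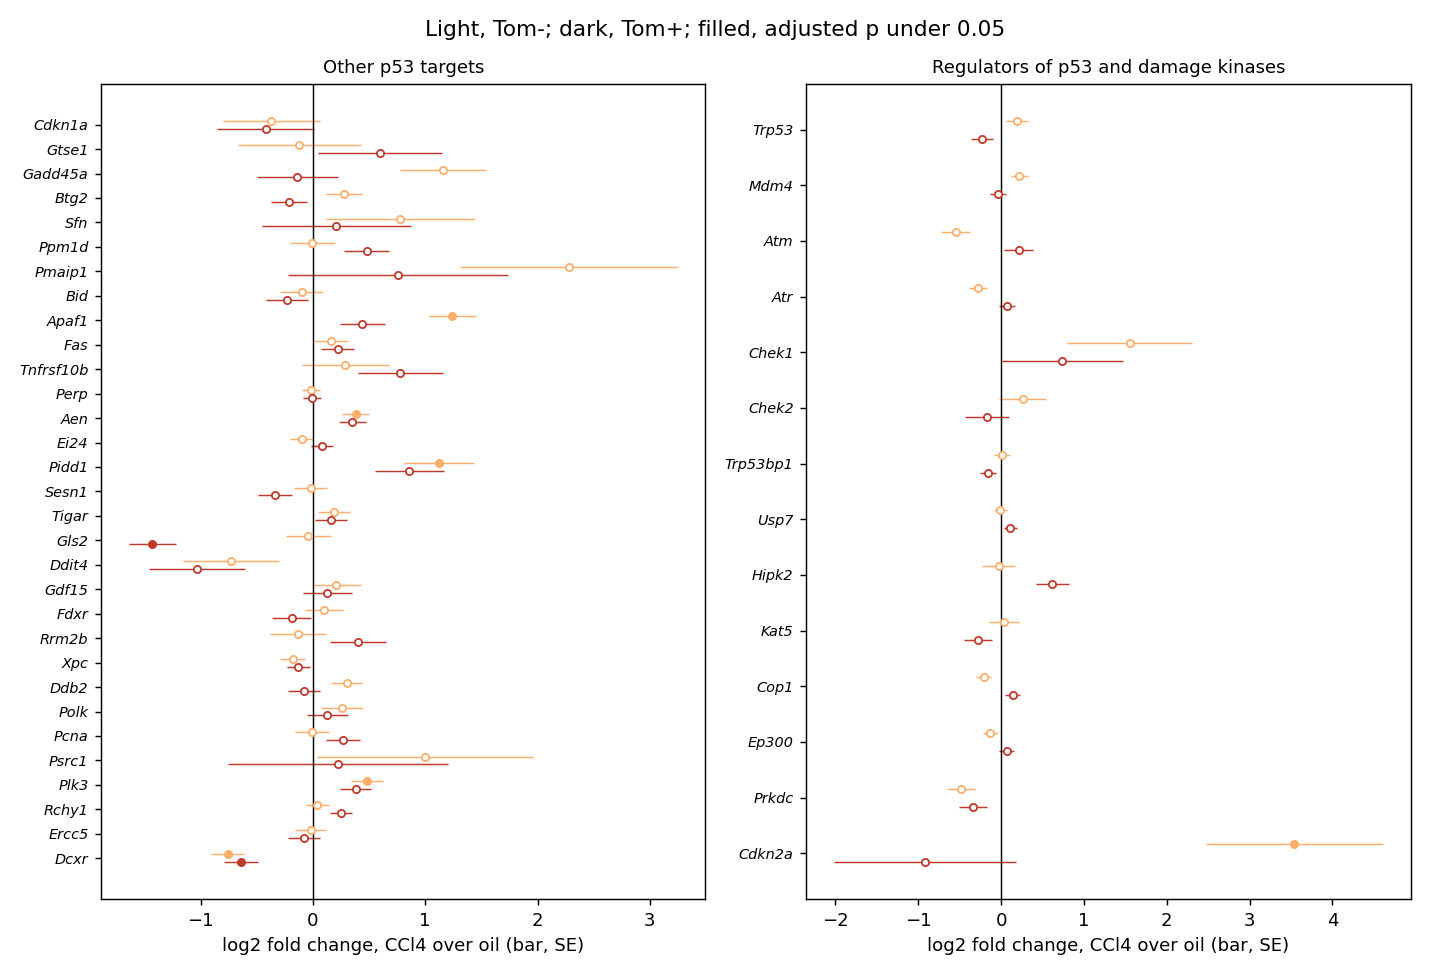
Log2 fold change (CCl4 over oil) with its SE for 31 other p53 targets (left) and 14 regulators (right) in Tom- (light) and Tom+ (dark). Filled points have an adjusted p under 0.05: Apaf1, Aen, Pidd1, Plk3, Dcxr and Cdkn2a in Tom-, and Gls2 and Dcxr in Tom+.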

How the data were processed

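Poly-A RNA of sorted hepatocytes was sequenced by the authors with strand-specific libraries. Per the labels and the methods, reads were checked with fastp (v0.23.2) and aligned to mm10 with HISAT2 (v2.1.0). The deposited table gives unnormalized expected counts for each feature, and the setting of strand in the counting was not given in the sources used here. Fractions stood in 30.4 to 32.9% of the values above 0 in each library, so counts were rounded to whole numbers, with 0.5 going to the even number, where the design had assumed whole counts. This rounding was chosen after results with 0.5 rounded up had been seen. Of 54839 features, 99.8% were matched to a symbol.

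One fit of the 12 libraries was made with edgeR (v4.0.16, in R v4.3.3), using TMM, filterByExpr (17121 genes), a coefficient per group and the robust quasi-likelihood test with Benjamini-Hochberg adjustment over all genes. SE were derived from the fitted coefficient and its F statistic. Thresholds were an adjusted p under 0.05, alone or with a log2 fold change beyond 0.75. Alternatives used limma (v3.58.1) and DESeq2 (v1.42.0). Scripts were tested on simulated data. Plots were made with matplotlib (v3.10.9) in Python (v3.11.15).

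All 10 members are named, together with genes of the wider lists that passed in the comparison described, Trp53, Cdkn1a, Cdkn2a and some of the genes most like the members, of which 1 is not reported here. The members and lists were chosen with earlier results of these data known. Samples were grouped by their labels. Pairing comes from the replicate numbers in the labels: deviations from group means correlated at 0.187 to 0.401 between same-numbered Tom+ and Tom- libraries of a treatment (6 pairs, mean of different numbers -0.131), and at 0.009 to 0.226 between CCl4 and oil, which share only a number. Deviations from a mean of 3 libraries sum to 0. The mean of different numbers therefore largely follows from that of same numbers (0.265) and is no separate evidence of pairing.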

Additional observations from a re-analysis of the deposited data

Results flagged for a closer look

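The effect of CCl4 on Ccng1 differed between Tom+ and Tom- hepatocytes by an interaction of 0.53 (adjusted p = 0.0329, edgeR), with the Tom+ CCl4 libraries above and the Tom- CCl4 libraries below all oil libraries. The interaction passed in 12 of 21 alternative fits.

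The effect on Gls2 differed between the fractions by an interaction of -1.39 (adjusted p = 0.0407, edgeR). Of 8 zone 1 markers, 4 also had a negative interaction at an adjusted p under 0.05 and 0 a positive one. The part of zonation was not tested.

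For Trp53inp1, Tom+ was lower than Tom- in 3 of 3 oil pairs and higher in 3 of 3 CCl4 pairs. The reporter transcript was high in both libraries of oil pair 1 and low in both of oil pair 2. The interaction of 0.61 had an adjusted p of 0.22, and of 0.00424 with the replicate block (edgeR). It passed in 1 of 21 alternative fits, the one with the block.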

How the results depend on the processing

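Counts are of members past both thresholds unless said otherwise. At an adjusted p under 0.05 alone the count was 4 in place of 2 for CCl4 against oil in Tom-, 6 in place of 2 in Tom+, 6 in place of 2 over both fractions, and 1 in place of 0 both for Tom+ against Tom- in CCl4 and for the interaction. With both oil libraries of contrary reporter left out, the count was 1 in Tom- (Bax) and 1 in Tom+ (Phlda3). With both CCl4 libraries high in proliferation genes left out, which was chosen after seeing the data, it was 1 in Tom- (Plk2). Leaving out each library in turn gave 1 to 2 in Tom-, 1 to 3 in Tom+, 2 to 3 over both fractions and 0 in the other comparisons. The count in Tom- was 1 without Tom- oil 2 or 3, Tom+ oil 1, Tom- CCl4 3, or Tom+ CCl4 2 or 3, and in Tom+ it was 1 without Tom+ oil 1. Rounding 0.5 up, chosen after seeing the data, gave 3 in Tom-, as did RLE normalization, DESeq2 and the filter of 10 counts. With same-numbered libraries summed, 2 members passed both thresholds and 4 the adjusted p alone over both fractions. With the replicate block, Tom+ against Tom- in CCl4 had 4 members at an adjusted p under 0.05 in place of 1, and the interaction 2 in place of 1. Beside those and Mdm2 and Sesn2 for CCl4 against oil, the block changed no other call of a member. Of 1310 single member values under alternatives, 1224 stayed on their side of the adjusted p threshold, 75 no longer passed, 11 newly passed and 0 reversed. In 22 the sign differed with neither fit past the threshold. A fit of the compared libraries alone is the main fit itself for the mean over fractions and the interaction. Low counts limit Phlda3 (from 19 counts), Eda2r (from 59) and Cdkn2a.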
